A study of Homo sapiens with 23 samples.

Results

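Peaks of supervillin (SVIL) were set against peaks of LSD1+8a in SH-SY5Y cells on day 3 of brain-derived neurotrophic factor (BDNF). All peaks of both deposited lists were taken, 1452 for SVIL and 3378 for LSD1+8a, which is 4830 of the 52708 peaks in the 5 lists at hand. SH-SY5Y, derived from a human neuroblastoma, acquires features of neurons under retinoic acid and BDNF. Both libraries came from cells infected with a control shRNA and, per the labels' protocols, treated with 10 µM retinoic acid for 4 days and then with BDNF at 50 ng/mL for 3 days, without serum. The other 3 lists, used only to describe these peaks, are LSD1 in control shRNA cells on day 3, LSD1 in control shRNA cells on day 0 and LSD1 in LSD1+8a shRNA cells on day 0. Days are days of BDNF. The protocols, given alike for every sample, state the same retinoic acid treatment for these 3 libraries, so day 0 does not stand for untreated cells. Each list is 1 library, so no test between libraries was possible, and intervals in parentheses are exact 95% binomial intervals over peaks, or over ordered values for medians, that cover counting error only. Peaks are not fully independent, and regions of high signal were kept. The series has 23 samples, 14 ChIP and 9 input.

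LSD1 (KDM1A) is a flavin-dependent demethylase that removes methyl groups from histone H3 as part of corepressor complexes. LSD1+8a is a splice isoform of the same protein found in neurons, in which a small additional exon is included, and the title of the series ties it to demethylation of lysine 9 of histone H3. SVIL is a large member of the villin and gelsolin family of actin-binding proteins, known mostly from the cell cortex and from adhesion sites, and the series design names it as a cofactor of LSD1+8a. The comparison asks at how many positions, and where within them, the isoform and its named cofactor are both listed. The SVIL antibody was commercial and the LSD1+8a antibody was a polyclonal antibody made by the study, per the labels. Libraries from SVIL shRNA and LSD1+8a shRNA cells with these antibodies were not analysed here, so neither antibody was checked against its knockdown.

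The sources used here give neither library depth nor the input behind each list, so peaks that 2 lists owe to a shared input cannot be told apart from the rest. Peaks of the SVIL list held 35701 tags in all and covered 0.488 Mb, and peaks of the LSD1+8a list held 149464 tags and covered 3.01 Mb. The lowest deposited score was 71.7 in the SVIL list and 50.0 in the LSD1+8a list, so the lists were not drawn to the same lowest score. Positions are in the hg19 build and gene models of that build were not used here, so peaks are given by position and the cell type of the line was not checked against marker genes.

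Most SVIL peaks lay away from LSD1+8a peaks. An overlap of at least 1 bp with LSD1+8a was found for 270 of the 1452 SVIL peaks (18.6%, 16.6 to 20.7). The reverse overlap was found for 260 of the 3378 in the LSD1+8a list (7.70%, 6.82 to 8.65). Counted in base pairs, the shared stretches made up 0.0989 Mb, which is 20.3% of the SVIL length and 3.29% of the LSD1+8a length. The sharing was almost 1 to 1. No SVIL peak overlapped 2 LSD1+8a peaks (0 of 270, which allows a share of up to 1.11%), while 10 of the 260 shared LSD1+8a peaks (3.85%, 1.86 to 6.96) held 2 SVIL peaks. The share depended on how an overlap was counted. With every peak reduced to a window of 300 bp around its summit, 15.4% of the SVIL peaks were shared, and when the overlap had to cover 50% of both peaks, 4.68%.

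Shared SVIL peaks were longer and held more tags than SVIL peaks of 1 list. In the LSD1+8a list shared peaks held more tags, while the direction for length depended on the way peaks were counted. SVIL peaks at LSD1+8a had a median length of 341 bp (331 to 360), against 306 bp (300 to 315) for SVIL peaks without an overlap. Their median number of tags was 22 (21 to 24), against 19 (19 to 20). LSD1+8a peaks at SVIL had a median length of 896 bp (860 to 942) and 48 tags (45 to 52), against 826 bp (815 to 837) and 37 tags (36 to 38) for LSD1+8a peaks without an overlap. The LSD1+8a length difference turned round with an overlap of 50% of both peaks, at 738 bp (665 to 805) for shared and 834 bp (824 to 845) for other peaks. In the upper 50% by score the medians were 898 bp (831 to 1008) and 902 bp (880 to 917), intervals that overlap. With lists of equal length they were 891 bp (840 to 978) and 912 bp (892 to 929), which also overlap. A longer peak has more room to be overlapped, so the length difference is partly set by the way sharing is counted. Tags per 100 bp of peak, which take the length out, had a median of 6.35 (6.22 to 6.47) in shared SVIL peaks and 6.37 (6.30 to 6.45) in the other SVIL peaks, intervals that overlap. In LSD1+8a peaks the medians were 5.19 (4.95 to 5.40) when shared and 4.34 (4.30 to 4.39) when not, intervals that do not overlap. The authors' fold enrichment ran the other way in the LSD1+8a list, with a median of 13.4 (12.8 to 14.2) in shared peaks and 15.3 (15.1 to 15.5) in the others.

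**Figure D1:**
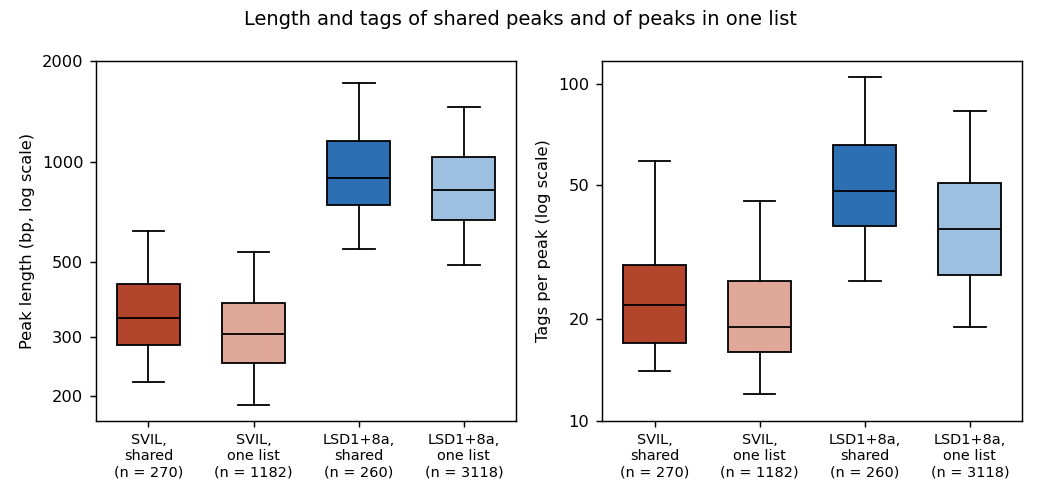
Peak length in bp (left) and tags per peak (right), both on log axes, for SVIL and LSD1+8a peaks that overlap the other list or lie in 1 list. Boxes span the quartiles around the median line and whiskers span the 5th to 95th percentile of peaks of 1 library. Median lengths are 341 bp for shared and 306 bp for other SVIL peaks, and 896 bp for shared and 826 bp for other LSD1+8a peaks, an LSD1+8a difference that turns round under 3 other ways of counting (738 against 834 bp, 898 against 902 bp, 891 against 912 bp).

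Sharing went up with tags in both lists. In the 20% of the SVIL list with the fewest tags (8 to 15), 11.4% (7.96 to 15.6) of peaks overlapped LSD1+8a, and in the 20% with the most (29 to 1093), 25.1% (20.2 to 30.5). In the 20% of the LSD1+8a list with the fewest tags (12 to 26), 2.22% (1.25 to 3.64) overlapped SVIL, and in the 20% with the most (57 to 1488), 14.5% (11.9 to 17.4). The rise with score stopped before the top. Among SVIL peaks, 30.3% (23 to 38.5) of score decile 9 and 15.8% (10.3 to 22.7) of decile 10, the highest, overlapped LSD1+8a. Among LSD1+8a peaks, 12.4% (9.10 to 16.4) of decile 9 and 6.21% (3.89 to 9.34) of decile 10 overlapped SVIL.

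The strongest peaks of the lists also differed in where else they were found. Of the 100 SVIL peaks with the highest scores, 65 (54.8 to 74.3%) overlapped no peak of any other list, 33 (23.9 to 43.1%) overlapped day 3 LSD1 and 14 (7.87 to 22.4%) overlapped LSD1+8a. In the whole SVIL list, 434 of 1452 overlapped no other list, 58.7% day 3 LSD1 and 18.6% LSD1+8a. The last share lies within the interval of the top 100. Of the 100 LSD1+8a peaks with the highest scores, 8 (3.52 to 15.2%) overlapped no peak of any other list, 55 (44.7 to 65.0%) overlapped day 3 LSD1 and 6 (2.23 to 12.6%) overlapped SVIL. In the whole LSD1+8a list, 518 of 3378 overlapped no other list, 59.6% day 3 LSD1 and 7.70% SVIL. The shares at day 3 LSD1 and at SVIL lie within the intervals of the top 100. The part of the SVIL list found in no other list was largest at both ends of the score range. It was 42.8% (34.6 to 51.2) in the lowest decile, 17.8% (12.0 to 25) in decile 5 and 58.2% (49.8 to 66.3) in the highest. For LSD1+8a the same share was 32.6% (27.7 to 37.9) in the lowest decile and 7.10% (4.60 to 10.4) in the highest.

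Shared peaks were mostly LSD1 peaks. Of the SVIL peaks at LSD1+8a, 234 of 270 (86.7%, 82.0 to 90.5) also overlapped a day 3 LSD1 peak, against 619 of 1182 (52.4%, 49.5 to 55.2) of the SVIL peaks without LSD1+8a. For LSD1+8a peaks the shares were 224 of 260 (86.2%, 81.3 to 90.1) when shared with SVIL and 1788 of 3118 (57.3%, 55.6 to 59.1) when not. The background for all peaks is 58.7% of SVIL and 59.6% of LSD1+8a. Read from the other side, 27.4% (24.5 to 30.6) of the 853 SVIL peaks at day 3 LSD1 overlapped LSD1+8a, against 6.01% (4.24 to 8.22) of the 599 others. The isoform carries the sequence of LSD1 around the added exon, and cross-recognition by the LSD1 antibody was not tested.

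The same shares were taken within 5 classes of SVIL length, of which the longest is wide. In the shortest 20% of SVIL peaks (76 to 243 bp), 15.4% (9.66 to 22.8) of those at LSD1 and 6.25% (3.04 to 11.2) of the others overlapped LSD1+8a, intervals that overlap. In the longest 20% (405 to 2197 bp) the shares were 36.8% (30.0 to 44.0) at LSD1 and 6.12% (2.28 to 12.9) elsewhere. The share at LSD1 went up with SVIL length, and the share elsewhere stayed between 3.77% and 8.93% over the 5 length classes. The same pattern was present by tags, with 41.0% (33.4 to 48.9) at LSD1 and 4.00% (1.31 to 9.09) elsewhere in the 20% with the most tags.

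Sharing went up with the number of LSD1 lists that covered a peak, though the intervals for 1 and for 2 LSD1 lists overlap. Among SVIL peaks in none of the 3 LSD1 lists, 7 of 441 (1.59%, 0.640 to 3.24) overlapped LSD1+8a. The share was 15.3% (11.4 to 19.9) of 300 peaks in 1 LSD1 list, 21.5% (17.4 to 26.1) of 362 in 2 and 39.8% (34.7 to 45.2) of 349 in all 3. For LSD1+8a peaks the shares at SVIL were 7 of 525 (1.33%, 0.538 to 2.73) in none, 5.16% (3.76 to 6.88) of 834 in 1, 7.03% (5.56 to 8.74) of 1053 in 2 and 14.1% (11.9 to 16.4) of 966 in all 3. Most peaks that SVIL and LSD1+8a shared on day 3 were thus at positions where LSD1 was already listed on day 0, with 213 of the 270 shared SVIL peaks (78.9%, 73.5 to 83.6) at a day 0 LSD1 peak of control cells, against 524 of the 1182 others (44.3%, 41.5 to 47.2). LSD1 in LSD1+8a shRNA cells covered 172 of the 270 (63.7%, 57.7 to 69.4), against 309 of the 1182 (26.1%, 23.7 to 28.7).

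Of SVIL peaks in all 3 LSD1 lists, 39.8% overlapped LSD1+8a. The share was lower where LSD1 was listed on day 3 alone, but not there only. It was also lower at LSD1 of control cells on both days without LSD1 in LSD1+8a shRNA cells. There, 48 of 245 SVIL peaks (19.6%, 14.8 to 25.1) overlapped LSD1+8a. Neither interval overlaps that of all 3 lists. Of the 224 SVIL peaks at LSD1 on day 3 but in neither day 0 list, 40 (17.9%, 13.1 to 23.5) overlapped LSD1+8a. Of the 82 SVIL peaks at LSD1 in both day 0 lists but not on day 3, 23 (28.0%, 18.7 to 39.1) did. Among LSD1+8a peaks, day 3 alone and both day 0 lists without day 3 came in the opposite order. Their shares at SVIL were 37 of 534 (6.93%, 4.93 to 9.42) and 23 of 541 (4.25%, 2.71 to 6.31). In each list the intervals of these 2 kinds overlap. LSD1+8a peaks at LSD1 of control cells on both days, without LSD1 in LSD1+8a shRNA cells, overlapped SVIL in 44 of 386 cases (11.4%). That interval overlaps the interval of LSD1+8a peaks in all 3 lists.

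**Figure D2:**
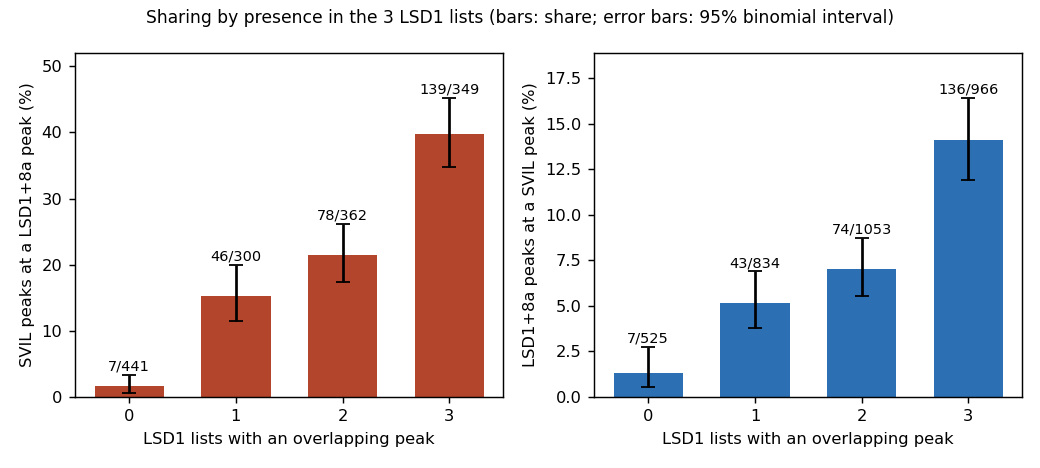
Share of SVIL peaks at an LSD1+8a peak (left, in percent) and of LSD1+8a peaks at a SVIL peak (right, in percent) by the number of LSD1 lists, 0 to 3, that hold an overlapping peak. Bars start at 0, error bars are exact 95% binomial intervals, and the fractions above them give peaks. Both shares were lowest for peaks in no LSD1 list (1.59% and 1.33%) and highest for peaks in all 3 (39.8% and 14.1%).

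Within shared regions the narrow SVIL peak sat inside the wide LSD1+8a peak. The LSD1+8a peak was a median of 2.66 times as long (2.52 to 2.82) and the SVIL peak was the wider one in 1 of the 270 pairs. In 249 pairs (92.2%, 88.4 to 95.1) the SVIL peak lay wholly inside it, and in 267 (98.9%, 96.8 to 99.8) the SVIL summit did. The LSD1+8a summit lay inside the SVIL peak in 193 pairs (71.5%, 65.7 to 76.8). Each SVIL peak covered a median of 36.4% (33.8 to 38.4) of the LSD1+8a peak.

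Along the LSD1+8a peak, SVIL summits were spread more widely than the LSD1+8a summits, by intervals that do not overlap. Counted from the edge with the lower coordinate, the SVIL summit lay at a median of 48.5% of the LSD1+8a length (45.0 to 51.8) and the LSD1+8a summit at 52.3% (48.3 to 54.8). The SVIL summit was between 33.3% and 66.7% of the length in 159 pairs (58.9%, 52.8 to 64.8), and the LSD1+8a summit in 193 (71.5%, 65.7 to 76.8). It was beyond the outer 20% on either side, or outside the peak, in 37 pairs (13.7%, 9.84 to 18.4), and the LSD1+8a summit in 14 (5.19%, 2.86 to 8.55). Neither side was favoured, with the SVIL summit at the lower coordinate in 143 pairs, at the higher in 126 and at the same base in 1.

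Summits of a pair lay a median of 100.5 bp apart (83 to 120), at most 50 bp apart in 83 pairs (30.7%, 25.3 to 36.6) and at most 300 bp apart in 224 (83.0%, 77.9 to 87.2). Gel selection of 300 to 600 bp fragments limits how finely a summit can be placed. The SVIL summit was nearer to the LSD1+8a summit than to the midpoint of the LSD1+8a peak in 139 pairs (51.5%, 45.3 to 57.6) and nearer to the midpoint in 131. A position at the LSD1+8a summit was thus not told apart from one at the centre of the peak. A wider LSD1+8a peak leaves more room between summits. The distance had a median of 140.5 bp (100 to 177) in the 134 pairs with the wider LSD1+8a peaks, of median length 1174 bp, and 74 bp (53 to 102) in the 136 with the narrower ones, of median length 752 bp, and these intervals overlap slightly.

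Where day 3 LSD1 overlapped as well, in 234 pairs, the SVIL summit lay a median of 100 bp (77 to 119) from the LSD1+8a summit and 93 bp (79 to 110) from the nearest LSD1 summit. The LSD1+8a summit and that same LSD1 summit lay 70.5 bp (59 to 89) apart. SVIL was nearer to LSD1 in 129 of these pairs (55.1%, 48.5 to 61.6) and nearer to LSD1+8a in 105 (44.9%, 38.4 to 51.5). Where a SVIL peak overlapped several LSD1 peaks, taking the nearest LSD1 summit can only favour LSD1 in this count. The LSD1 peaks were the longest of the 3, with a median of 1399 bp (1331 to 1583).

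**Figure D3:**
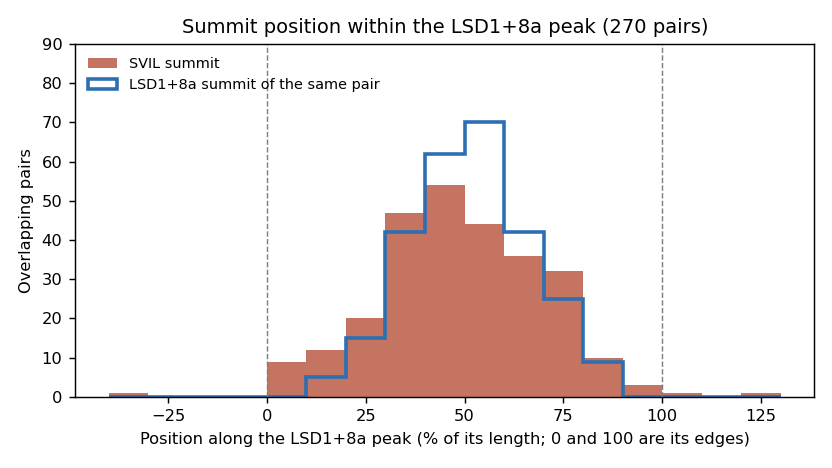
Position of the SVIL summit (filled) and of the LSD1+8a summit of the same pair (outline) along the LSD1+8a peak, in percent of its length from its lower-coordinate edge, for 270 overlapping pairs in bins of 10 percentage points. Both distributions centre near the middle, and the SVIL summits are spread more widely, with 37 pairs against 14 in the outer parts or outside the peak. The LSD1+8a summit always lies inside its own peak, while the SVIL summit need not.

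The best ranked shared region by the worse of its 2 ranks was on chromosome 17. Its SVIL peak (76249964 to 76250726, 763 bp, 214 tags) was ranked 1 in its list and its LSD1+8a peak (76249931 to 76250954, 1024 bp, 97 tags) 37. The SVIL peak covered 74.5% of the LSD1+8a peak, and the summits lay 455 bp apart, at 30.3% of the LSD1+8a length for SVIL and 74.7% for LSD1+8a. A region on chromosome 11 with a SVIL peak ranked 2 (62608795 to 62609414, 124 tags) and an LSD1+8a peak ranked 391 (62608687 to 62609570, 62 tags) had its summits 35 bp apart. On chromosome 3, the SVIL peak (156877889 to 156878304, 29 tags) and the LSD1+8a peak (156877711 to 156878663, 84 tags) had summits 96 bp apart. On chromosome 17 a SVIL peak of 403 bp (43225668 to 43226070, 25 tags) lay in an LSD1+8a peak of 1433 bp (43224921 to 43226353, 79 tags), with summits 100 bp apart. Of the 10 best ranked regions, 8 were in all 3 LSD1 lists, 1 on chromosome 17 (73775695 to 73776039 for SVIL) was in 2 and 1 on chromosome 1 (153606444 to 153606773 for SVIL) was in 1. Of all 270 shared SVIL peaks, 139 (51.5%, 45.3 to 57.6) were in all 3, and 10 regions are too few to set these shares apart.

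Some shared regions were rich in tags but low in fold enrichment. Of the 10 SVIL peaks with at least 100 tags, 8 had a fold below the list median of 18.2. All 8 overlapped day 3 LSD1 and 6 overlapped LSD1+8a, as did both of the other 2 with a higher fold. Of all SVIL peaks, 58.7% overlapped day 3 LSD1 and 18.6% overlapped LSD1+8a. On chromosome 21 the SVIL peak (9825444 to 9827640) held 1093 tags at a fold of 6.75 and the LSD1+8a peak (9825362 to 9827851) 1488 tags at a fold of 5.48. On chromosome 1 the SVIL peak (91852707 to 91853153) held 348 tags at a fold of 5.38 and the LSD1+8a peak (91852421 to 91853240) 416 tags at a fold of 6.74. On chromosome 11 the values were 136 tags at a fold of 6.15 for SVIL (85195001 to 85195299) and 159 tags at a fold of 6.47 for LSD1+8a (85194903 to 85195275). In the LSD1+8a list, 45 of the 107 peaks with at least 100 tags had a fold below the list median of 15.2. Of these 45, 15 overlapped SVIL, while 5 of the other 62 did, beside 7.70% of the whole list. Without such peaks, 17.6% of SVIL peaks and 7.32% of LSD1+8a peaks were shared. The inputs at these regions were not analysed here.

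The 10 LSD1+8a peaks that held 2 SVIL peaks were between 843 and 1833 bp long. The longest, on chromosome 4 (174442568 to 174444400, 73 tags), held SVIL peaks of 35 and 34 tags, whose summits lay 624 and 415 bp from the LSD1+8a summit, which was at 41.6% of its length between them. On chromosome 1 an LSD1+8a peak of 1542 bp (234678921 to 234680462, 80 tags) held SVIL peaks of 41 and 29 tags, with summits at 25% and 69.5% of its length and the LSD1+8a summit at 50.8%. On chromosome 17 (62254972 to 62256568, 90 tags) the pattern differed, with 1 of the SVIL summits 14 bp from the LSD1+8a summit and the other 725 bp away. The same was seen on chromosome 2 (47466127 to 47467303, 54 tags), where the distances were 10 and 608 bp.

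The pairs at the ends of the range show what an overlap can mean. The largest summit distance was 854 bp, on chromosome 7, where the SVIL peak (86860575 to 86860839, 17 tags) had its summit at 82.1% of the LSD1+8a peak (86859706 to 86860911, 42 tags), whose own summit was at 11.3%. At the other end, the summits on chromosome 22 fell on the same base, in a SVIL peak of 243 bp (19997202 to 19997444, 17 tags) and an LSD1+8a peak of 1772 bp (19996655 to 19998426, 68 tags). The shortest overlap was 67 bp, on chromosome 2, between a SVIL peak of 239 bp (191879074 to 191879312, 15 tags) and an LSD1+8a peak of 856 bp (191878285 to 191879140, 29 tags). The closest pair that did not overlap was 22 bp apart on chromosome 5, with a SVIL peak of 369 bp (148802504 to 148802872, 21 tags) and an LSD1+8a peak of 703 bp (148801780 to 148802482, 33 tags). The next was 75 bp apart on chromosome 8.

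Near misses were few. Of the 1182 SVIL peaks without an overlap, 19 (1.61%, 0.970 to 2.50) lay within 1 kb of an LSD1+8a peak, 89 (7.53%, 6.09 to 9.18) within 10 kb and 431 (36.5%, 33.7 to 39.3) within 100 kb. Their median gap was 177510.5 bp (156868 to 199171), beside a median gap of 163353 bp (155043 to 172979) from an LSD1+8a peak to the nearest other peak of its own list. Of the 3118 LSD1+8a peaks without an overlap, 14 (0.449%, 0.246 to 0.752) lay within 1 kb of a SVIL peak, 75 (2.41%, 1.90 to 3.01) within 10 kb and 515 (16.5%, 15.2 to 17.9) within 100 kb. Their median gap was 583097 bp (544402 to 617559), beside 344074 bp (314142 to 371646) from a SVIL peak to the nearest other of its list. SVIL peaks without LSD1+8a were within 100 kb of it in 39.9% (36.0 to 43.9) of cases when they lay at day 3 LSD1 and in 32.7% (28.8 to 36.7) when they did not, intervals that overlap slightly.

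**Figure D4:**
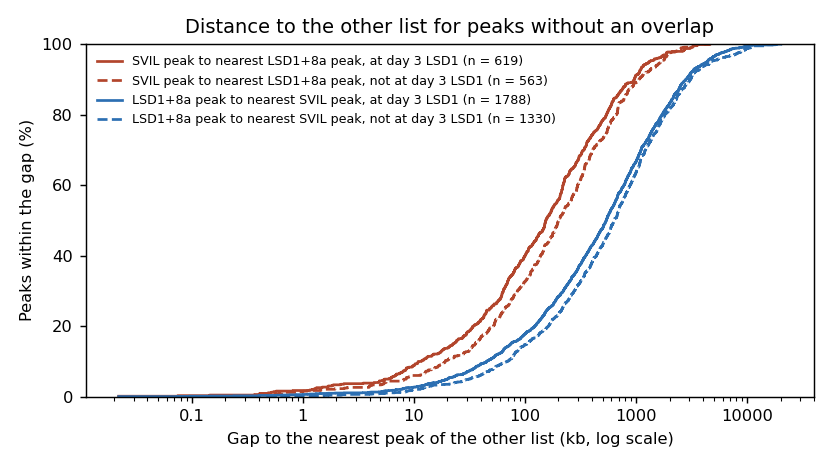
Cumulative share of peaks without an overlap (percent) against the gap to the nearest peak of the other list (kb, log axis), for SVIL and LSD1+8a peaks that overlap day 3 LSD1 (solid) or do not (dashed). Curves stay low below 10 kb, where 7.53% of the SVIL and 2.41% of the LSD1+8a peaks are found, and the SVIL curves lie to the left of the LSD1+8a curves. With lists of equal length the shares within 10 kb are 3.49% for SVIL and 2.42% for LSD1+8a.

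Of the 10 SVIL peaks with the highest scores among those without LSD1+8a, 6 lay in none of the LSD1 lists, beside 434 of all 1182 such peaks (36.7%, 34.0 to 39.5), and 10 peaks are too few to set these shares apart. The highest of the 6 was on chromosome 6 (10778519 to 10778930) with 76 tags, 314 kb from the nearest LSD1+8a peak. The next, on chromosome 17 (80908574 to 80909276), had 98 tags and was 7.47 kb from LSD1+8a. The other 4 had 57 to 68 tags and lay between 137 and 679 kb from LSD1+8a, on chromosomes 1, 9, 12 and 20. The 434 SVIL peaks in no other list had a median fold of 21.2 (20.4 to 21.2), above the 18.2 (18.1 to 18.7) of the whole list, at a median length of 301 bp (290 to 314).

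Of the 10 LSD1+8a peaks with the highest scores among those without SVIL, 1 lay in none of the LSD1 lists, near the share of all 3118 such peaks (518, 16.6%, 15.3 to 18), and 6 lay in all 3, beside 26.6% (25.1 to 28.2) of all. The first, on chromosome 17 (80605824 to 80606757, 214 tags), was 153 kb from the nearest SVIL peak and in all 3 LSD1 lists. A peak on chromosome 4 (39459885 to 39461290) with 211 tags was also in all 3, at 1.88 Mb from SVIL. So was a peak on chromosome 19 (57874199 to 57875092), with 145 tags at 2.15 Mb from SVIL. The 1 in no other list was on chromosome X (149106330 to 149107072, 142 tags), 4.52 Mb from the nearest SVIL peak. The 518 LSD1+8a peaks in no other list were short and thin, with a median of 696 bp (666 to 717) and 27 tags (25 to 28), against 831 bp (822 to 843) and 38 tags (38 to 39) for the whole list.

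By locus, the window of 1 Mb with the most shared peaks was the stretch from 26 to 27 Mb of chromosome 6, which general knowledge of the hg19 map, rather than an annotation used here, places in the large cluster of replication-dependent histone genes. It held 11 SVIL peaks (5.49 to 19.7, exact Poisson interval), of which 6 were shared, and 12 LSD1+8a peaks (6.20 to 21.0). All 11 SVIL peaks and 9 of the LSD1+8a peaks overlapped day 3 LSD1, beside 58.7% of all SVIL and 59.6% of all LSD1+8a peaks. The 6 shared SVIL peaks formed a run from 26027314 to 26285932, with 21 to 34 tags each. The next window of chromosome 6, from 27 to 28 Mb, held 5 SVIL and 9 LSD1+8a peaks, 3 of the SVIL peaks shared. The first window was chosen by its count of shared peaks and the second for lying next to it, so both are a description.

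There were 3 other runs of at least 3 shared SVIL peaks with gaps of at most 100 kb. The run on chromosome 11 (72032354 to 72123151) had 4 SVIL and 4 LSD1+8a peaks, that on chromosome 17 (62222927 to 62256361) 3 SVIL and 2 LSD1+8a peaks, and that on chromosome 8 (23007098 to 23012338) 4 SVIL and 2 LSD1+8a peaks. Every shared SVIL peak of the 4 runs lay at a day 3 LSD1 peak, beside 86.7% of all shared SVIL peaks, and the peaks of a run are neighbours.

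Other windows were chosen for the most SVIL peaks without LSD1+8a, so low sharing follows from the choice. Of all SVIL peaks, 18.6% were shared and 58.7% lay at day 3 LSD1. From 29 to 30 Mb of chromosome 2, 1 of the 11 SVIL peaks was shared and 9 lay at LSD1, beside 5 LSD1+8a peaks (1.62 to 11.7). From 29 to 30 Mb of chromosome 10, 1 of the 10 SVIL peaks (4.80 to 18.4) was shared and 7 lay at LSD1, beside 3 LSD1+8a peaks (0.619 to 8.77). From 133 to 134 Mb of chromosome 7, none of the 8 SVIL peaks (3.45 to 15.8) was shared and 6 lay at LSD1, beside 2 LSD1+8a peaks. By the same general knowledge, the gene for the receptor tyrosine kinase ALK lies at least in part in the first of these windows. The gene for SVIL itself lies at least in part in the second, so these counts need not cover either whole gene. On chromosome 18 (52885522 to 52902262), 5 SVIL peaks of 18 to 44 tags lay together with no LSD1+8a peak among them and none at day 3 LSD1.

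The 5 windows chosen for the most LSD1+8a peaks without SVIL held 11 to 14 LSD1+8a peaks each, of which 0 to 2 were shared, beside 7.70% of the whole list. From 30 to 31 Mb of chromosome 16 there was no SVIL peak (0 to 3.69) beside 14 LSD1+8a peaks (7.65 to 23.5). Of these 14, 6 lay at day 3 LSD1, beside 59.6% of the whole list. From 1 to 2 Mb of chromosome 19 there was no SVIL peak (0 to 3.69) beside 11 LSD1+8a peaks (5.49 to 19.7). From 2 to 3 Mb of chromosome 16 there was 1 SVIL peak (0.0253 to 5.57), not shared, and 12 LSD1+8a peaks. From 80 to 81 Mb of chromosome 17 there were 4 SVIL peaks and 12 LSD1+8a peaks, 1 of each shared. From 27 to 28 Mb of chromosome 2 there were 3 SVIL peaks and 13 LSD1+8a peaks, 2 of each shared. Of the 917 windows with a SVIL peak, 671 also held an LSD1+8a peak, and 224 held a shared one. A window of 1 Mb is far longer than any peak, so the larger first count follows from its size. LSD1+8a peaks were present in 1553 of the 1799 windows with a peak of either list. Whether the lists meet in windows more often than by their spread alone was not tested.

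The lists were spread differently over the chromosomes. Chromosome 7 held 12.4% (10.7 to 14.2) of SVIL peaks and 7.90% (7.02 to 8.87) of LSD1+8a peaks, and chromosome 1 held 15.1% (13.3 to 17) and 11% (10.0 to 12.1). Chromosome 19, the most gene-dense human chromosome, held 1.58% (1.01 to 2.37) of SVIL and 5.27% (4.54 to 6.08) of LSD1+8a peaks, and chromosome 16 held 1.79% (1.17 to 2.61) and 4.85% (4.15 to 5.63). On the other 19 of the 23 chromosomes with peaks the intervals overlapped. When each chromosome was divided at its widest stretch without a peak, chromosome 1 had 9.85% (8.36 to 11.5) of SVIL and 6.31% (5.51 to 7.18) of LSD1+8a peaks in its higher-coordinate part, against 5.23% (4.15 to 6.51) and 4.74% (4.04 to 5.51) in its lower part, so the intervals parted in the higher part only. The SVIL share was also above, without overlap of intervals, in the lower part of chromosome 2, with 6.89% (5.64 to 8.31) of SVIL and 4.59% (3.91 to 5.35) of LSD1+8a peaks. The same held in the higher part of chromosome 7, with 8.61% (7.22 to 10.2) of SVIL and 5.06% (4.35 to 5.86) of LSD1+8a peaks, and in the lower part of chromosome 8, with 2.13% (1.46 to 3.02) and 1.04% (0.723 to 1.44). The SVIL share was below in the lower part of chromosome 16, with 0.620% (0.284 to 1.17) of SVIL and 2.78% (2.25 to 3.39) of LSD1+8a peaks, and in both parts of chromosome 19. Copy number of these regions in the libraries was not measured here, and the share of tags per chromosome in the inputs was not analysed here.

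Sharing also varied by chromosome, for LSD1+8a peaks beyond their intervals. On chromosome 19, 6 of 23 SVIL peaks (26.1%, 10.2 to 48.4) overlapped LSD1+8a, and on chromosome 7, 29 of 180 (16.1%, 11.1 to 22.3). For LSD1+8a peaks the shares at SVIL were 6 of 178 (3.37%, 1.25 to 7.19) on chromosome 19, 6 of 164 (3.66%, 1.35 to 7.79) on chromosome 16, 27 of 267 (10.1%, 6.77 to 14.4) on chromosome 7 and 44 of 373 (11.8%, 8.70 to 15.5) on chromosome 1. The interval of chromosome 1 lies above those of chromosomes 16 and 19, and that of chromosome 7 overlaps them. Chromosomes 16 and 19 also held fewer SVIL peaks beside their LSD1+8a peaks than chromosome 1. Whether the LSD1+8a share varied apart from the number of SVIL peaks was not tested. Chromosome 18 had no shared region, with 0 of 20 SVIL peaks, which allows a share of up to 15%, and 0 of 51 LSD1+8a peaks, which allows up to 5.88%.

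**Figure D5:**
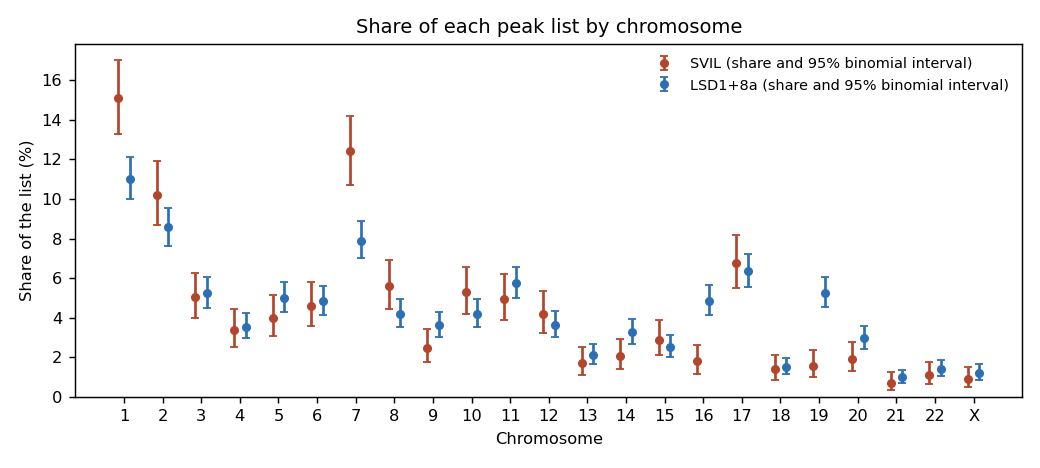
Share of the SVIL list and of the LSD1+8a list (percent of peaks) on each chromosome, with exact 95% binomial intervals as error bars, 1 library each. The SVIL share lies above the LSD1+8a share without overlap of the intervals on chromosomes 1 and 7, and below it on chromosomes 16 and 19.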

How the data were processed

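Per the labels' protocols, fixation was in 1% formaldehyde (10 minutes), sonication gave fragments of 300 to 800 bp, and reads were single-end, 50 bp long. Tools named in the submitters' processing notes are Bowtie 1.0.0 and CASAVA, and per the submitters' processing notes builds are hg19 and mm9. The lists hold human chromosomes and were read as hg19. The authors called peaks per library. The sources used here name no caller, threshold or input library. The deposited tags are whole-number counts per peak without normalization. Fold enrichment, as deposited, is a ratio, and the file headers leave its base unnamed. The deposited score lost its column name and served to rank peaks inside each list. Folds and scores are the authors' values. The deposited length and summit offset are in base pairs.

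Peaks overlapping by at least 1 bp were called shared. Shares have exact (Clopper-Pearson) intervals, and medians have intervals from the binomial distribution of order statistics. Windows of 1 Mb were assigned by summit. An upper limit for a share of 0 uses 3 counts. Peaks and lists were chosen with earlier results of these data known. Named regions are overlapping pairs with the best worse rank, the most SVIL tags, the extreme summit distances, the shortest overlaps or 2 SVIL peaks, peaks of 1 list with the highest score or the extreme gaps, and windows and runs with the most peaks. Runs of 5 or more peaks of 1 list, chromosome parts, tag-rich peaks and classes by length or tags were chosen after the values were seen. No genome of the build was used here, so no sequence is printed. Intervals cover counting error only, and PCR copies are not independent. Alternatives changed the overlap rule, the width, the score range, the list length, the chromosomes and merging, with 1 added after seeing the data. The overlap functions were tested on simulated data. Python 3.11.15, pandas 2.3.3 and scipy 1.17.1 were used.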

Additional observations from a re-analysis of the deposited data

How the results depend on the processing

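The shares of SVIL peaks at LSD1+8a (18.6%) and of LSD1+8a peaks at SVIL (7.70%) stayed within their intervals in 3 alternatives that could move them. These were edges at most 1 kb apart, peaks within 1 kb merged, and tag-rich peaks of low fold left out, the last chosen after seeing the data. Neither list has a peak on chromosome Y, so the alternative with autosomes and X only could change no value. They moved to 4.68% and 2.01% with a reciprocal overlap of 50%, to 15.4% and 6.63% with windows of 300 bp around the summits, to 12.8% and 5.45% in the upper 50% of each list by score, and to 9.30% and 9.02% with both lists cut to 1452 top scores. The share at day 3 LSD1 among shared SVIL peaks (86.7%) and among the others (52.4%) moved to 10.3% and 1.30% with the reciprocal overlap, which SVIL peaks can rarely meet against the much longer LSD1 peaks, and to 76.3% and 42.8% in the upper 50%. With lists of equal length the share among the others was 56%. The share was higher among shared SVIL peaks in every alternative run, though with the reciprocal overlap it rests on 7 of 68 peaks. Of 62 recomputed values of length, tags, summit distance and nearby peaks, 38 stayed within the interval of the reported value and 24 did not. The 38 include all values on autosomes and X only, which could not change. Leaving out a replicate was not possible with 1 library per group. No paired analysis was possible because each group is 1 library and the replicate number marks no shared culture. Unknown depth limits all counts, since fewer peaks and fewer reads cannot be told apart.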
